A study of Mus musculus with 4 samples.

Results

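The calbindin and parvalbumin genes, which encode small cytosolic calcium-binding proteins, were followed in the transcriptome of mouse mTEChi, the medullary thymic epithelial cells (mTECs) with high MHC class II that display tissue antigens to developing thymocytes. The set held 5 genes of the 23003 gene symbols in the counts. These were Calb1 (calbindin), Calb2 (calretinin), Pvalb (parvalbumin), Ocm (oncomodulin) and S100g (the intestinal calbindin of the S100 family), and each had a single RefSeq ID. They were taken by name, with Calb2 chosen by its strong difference in counts between genotypes in these same libraries, so the differences of the 5 genes between genotypes are given as a description, with no test. RNA-seq had been performed on 2 libraries labelled Aire-KO and 2 labelled WT, 1 of each genotype in a first experiment and 1 of each in a replicate experiment. Each library came from CD45-, Ly51- cells with high I-A/E, sorted from the pooled thymi of 4 B6 mice at 4 weeks of age. The knockout allele (Aire tm1.1Doi) carries a deletion in Aire, the regulator that drives tissue-restricted genes in these cells, in every cell of the animal and not only in mTECs. By the study's methods the Aire-KO mice came from another laboratory's line and the WT mice from a commercial breeder, so genotype and origin of the mice cannot be told apart. The libraries of both genotypes were made with polyA selection and a kit that does not mark strand.

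All of these proteins bind calcium through EF-hands, paired helix-loop-helix units in which a short acidic loop holds the ion. Calbindin and calretinin act as calcium buffers in neurons, calbindin also in the distal nephron, and S100g carries calcium across enterocytes under the control of vitamin D. Parvalbumin speeds the relaxation of fast-twitch muscle and marks a class of GABAergic interneurons, and oncomodulin is its close relative in the outer hair cells of the cochlea. In the thymus, genes of this kind belong to the tissue-restricted antigens that mTEChi transcribe outside their usual tissue.

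The 5 genes lie on 5 chromosomes, so no pair of them is neighbouring. In NCBIM37 (mm9) with the GENCODE annotation, Calb1 spans chr4:15808411-15835211 on the plus strand. On the minus strand, Calb2 spans chr8:112661402-112692110, Pvalb chr15:78021544-78036830, Ocm chr5:144780673-144787539 and S100g chrX:159399924-159402531. Calb1 and Calb2 each have 11 coding exons and share the lengths of 6 of them in a row, from the fifth to the tenth (57, 78, 56, 40, 54 and 72 bp). Pvalb and Ocm each have 4 coding exons and share the first 3 lengths (61, 133 and 110 bp), and S100g has 2 coding exons. Because a 50-bp read shared by 2 relatives could not be assigned to either, the coding sequences were compared. The longest exactly shared run was 15 bp, between Pvalb and Ocm, and 12 bp between Calb1 and Calb2, well under the length of a read. The longest coding exon of equal length in each pair, outside the first and last, is printed here from the mm9 genome, on the coding strand, with every base that differs from the partner in capitals.
Pvalb, coding exon 2 of 4, chr15:78032951-78033083: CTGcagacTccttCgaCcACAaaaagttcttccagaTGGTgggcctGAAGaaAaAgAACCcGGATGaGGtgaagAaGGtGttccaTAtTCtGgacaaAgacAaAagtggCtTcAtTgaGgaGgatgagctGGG
Ocm, coding exon 2 of 4, chr5:144785297-144785429: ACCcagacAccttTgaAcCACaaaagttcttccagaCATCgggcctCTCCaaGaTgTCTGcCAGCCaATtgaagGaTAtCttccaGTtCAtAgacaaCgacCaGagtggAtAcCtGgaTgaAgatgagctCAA
Calb2, coding exon 6 of 11, chr8:112672414-112672491: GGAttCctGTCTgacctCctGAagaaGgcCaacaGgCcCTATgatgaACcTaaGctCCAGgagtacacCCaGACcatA
Calb1, coding exon 6 of 11, chr4:15826025-15826102: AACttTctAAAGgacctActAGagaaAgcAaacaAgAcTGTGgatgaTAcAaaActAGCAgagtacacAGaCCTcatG
The parvalbumin pair differed at 51 of 133 bases (61.7% identical) and the calbindin pair at 33 of 78 bases (57.7% identical).

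Total counts per library ranged from 111077552 to 242862323. Levels are given as normalized CPM, that is counts scaled to library size with edgeR's TMM factors. Over all 26790 RefSeq IDs that passed the filter on low counts, edgeR's quasi-likelihood test with Benjamini-Hochberg adjustment called 5.58% lower and 0.258% higher in the libraries labelled Aire-KO at an adjusted p under 0.05, and the median log2 difference (Aire-KO over WT, as throughout) was 0.03. Aire was read by its RefSeq ID with the most counts, a noncoding (NR) entry. It stood at 1381 and 765 CPM in the libraries labelled Aire-KO, against 398 and 307 CPM in the libraries labelled WT (log2 difference 1.61, SE 0.44, adjusted p = 0.0885 from edgeR, and 0.000448 with a replicate block for the experiment). The sources used here do not name the deleted exons, so these counts of 1 ID over its whole transcript are no check on the labels. Each direction is given by label. By these labels 1495 IDs were lower and 69 higher in Aire-KO.

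Calb2, which encodes calretinin, was nearly absent from the libraries labelled Aire-KO. It had 12 and 18 counts in Aire-KO (95% Poisson intervals 6.20 to 21.0 and 10.7 to 28.4), against 3060 and 3155 counts in WT. These correspond to 0.0826 and 0.0783 CPM in Aire-KO, against 14 and 26.5 CPM in WT. Both Aire-KO libraries therefore held well under 1% of the WT level of their own experiment, 0.591% in the first and 0.296% in the replicate experiment. The fitted log2 difference was −7.96 (SE 0.62), which placed Calb2 at rank 431 of the 26790 RefSeq IDs from the most negative. The WT level was 1.89 times as high in the replicate experiment, which is small beside the 169-fold and 338-fold lower levels in Aire-KO.

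Calb1, the calbindin of distal nephron and Purkinje cells, was lower in the libraries labelled Aire-KO, but far less so than Calb2. It had 1142 and 686 counts in Aire-KO, against 3016 and 1589 counts in WT. The levels were 7.86 and 2.98 CPM in Aire-KO, against 13.8 and 13.3 CPM in WT, and the groups did not overlap. The WT libraries were nearly equal (13.6 ± 0.3 CPM, SD, n = 2), whereas the Aire-KO libraries lay far apart (5.42 ± 3.45 CPM, SD, n = 2). Accordingly, Calb1 in Aire-KO was 1.75-fold lower in the first experiment and 4.47-fold lower in the replicate experiment. The log2 difference over all libraries was −1.32 (SE 0.54), and it was −2.18 without Aire-KO replicate 1 and −0.78 without Aire-KO replicate 2.

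Pvalb and Ocm, the parvalbumin pair, parted in size. Pvalb, the muscle and interneuron parvalbumin, had 1097 and 3736 counts in Aire-KO, against 2847 and 3259 counts in WT. Its levels were 7.55 and 16.3 CPM in Aire-KO, against 13 and 27.3 CPM in WT, so the groups overlapped. Within each experiment, however, the Aire-KO level was nearly the same share of the WT level, 58.1% in the first and 59.4% in the replicate experiment. Both genotypes had a higher level in the replicate experiment, by 2.15 times in Aire-KO and 2.10 times in WT. The log2 difference was −0.76 (SE 0.55), and it ranged from −1.41 without Aire-KO replicate 2 to −0.10 without WT replicate 2. With a replicate block for the experiment it was −0.77 (SE 0.23). Ocm, the hair-cell oncomodulin, had 95 and 180 counts in Aire-KO, against 658 and 689 counts in WT. Its levels of 0.654 and 0.783 CPM in Aire-KO lay clear of the 3.01 and 5.78 CPM in WT, 4.60-fold lower in the first experiment and 7.38-fold lower in the replicate experiment (log2 difference −2.61, SE 0.56).

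S100g, the vitamin D-regulated calbindin of enterocytes, was the exception in direction. It had 18419 and 31631 counts in Aire-KO, against 10456 and 12812 counts in WT. The levels were 127 and 138 CPM in Aire-KO, against 47.8 and 107 CPM in WT, which did not overlap. Here the Aire-KO libraries were close to each other and the WT libraries differed, so that S100g in Aire-KO was 2.65-fold higher in the first experiment and 1.28-fold higher in the replicate experiment. The log2 difference was 0.77 (SE 0.47), with 1.47 without WT replicate 2 and 0.38 without WT replicate 1. S100g lies inside Ctps2, a CTP synthase gene on the opposite strand, without overlap of their exons. Since the libraries are not stranded, reads from Ctps2 introns over S100g exons could not be told apart from S100g reads. Ctps2 had 40.7 and 48.7 CPM in Aire-KO, against 23.8 and 30.3 CPM in WT (log2 difference 0.73, SE 0.36, adjusted p = 0.329 from edgeR, and 0.0186 with the replicate block), and its part in the S100g counts was not tested.

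**Figure D1:**
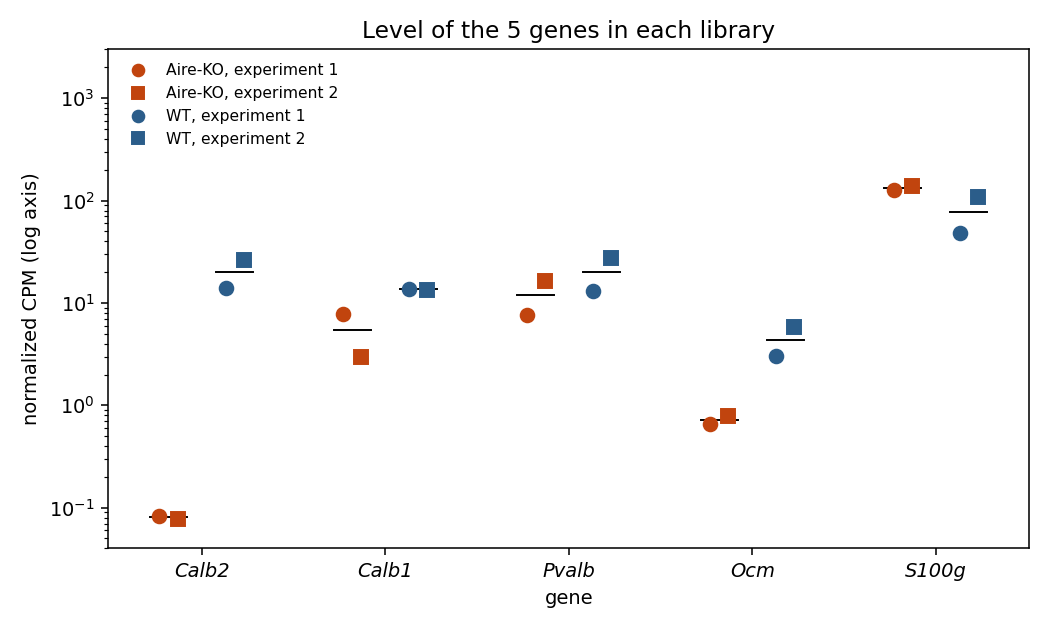
Normalized CPM (log axis) of each gene in each library, with Aire-KO libraries in red and WT libraries in blue, circles for the first and squares for the replicate experiment, and a line at each group's mean (n = 2). Calb2 lay at 0.0826 and 0.0783 CPM in Aire-KO, against 14 and 26.5 CPM in WT, whereas the Pvalb groups overlapped and S100g was higher in Aire-KO.

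In all, 4 of the 5 genes were lower and 1 was higher in Aire-KO in both experiments, where 37.5% of all RefSeq IDs tested were lower and 39.2% higher in both. For Calb2, Calb1 and Ocm, the Aire-KO libraries were both below the WT libraries, as for 28.4% of all IDs tested, and for S100g both above, as for 20.9%. The replicate experiment gave the larger difference for Calb2, Calb1 and Ocm and the smaller one for S100g, and for Pvalb the experiments gave −0.78 and −0.75 on the log2 scale.

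**Figure D2:**
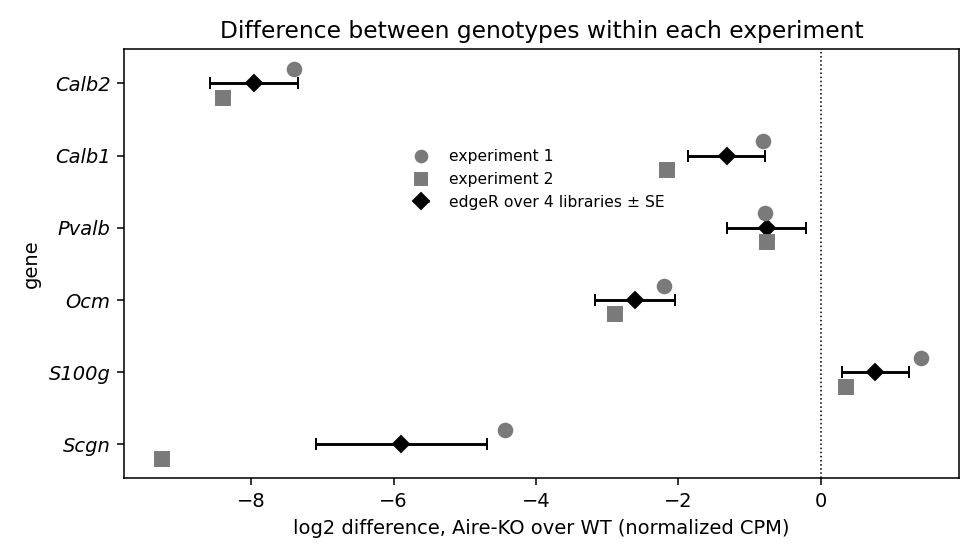
Log2 difference in normalized CPM, Aire-KO over WT, of the 5 genes and of Scgn, in the first experiment (circles) and the replicate experiment (squares), with the edgeR estimate over the 4 libraries (diamonds, bars 1 SE). Calb2 stood at −7.40 and −8.40, Pvalb at −0.78 and −0.75, and S100g at 1.41 and 0.36, while the Scgn value of the replicate experiment rests on 2 Aire-KO counts.

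The order of the genes by level was read per length, as RPKM over the counted bases of each transcript. In the libraries labelled Aire-KO, S100g came first with 275 ± 16 RPKM (SD, n = 2), followed by Pvalb with 13.3 ± 6.90, Calb1 with 1.89 ± 1.20, Ocm with 0.987 ± 0.126 and Calb2 with 0.0562 ± 0.0021 RPKM. In the libraries labelled WT, S100g was also first with 162 ± 88.0 RPKM, followed by Pvalb with 22.6 ± 11.4, Calb2 with 14.1 ± 6.17, Ocm with 6.03 ± 2.70 and Calb1 with 4.73 ± 0.11 RPKM. Calb2 was thus at rank 3 of 5 in WT and last in Aire-KO, in each library of the group. Neighbours within 1 SD of each other were Calb1 and Ocm in both genotypes and, in WT, Pvalb and Calb2. In WT, S100g was above 98.7% of the 18606 genes with a length and Calb2 above 78.8% of them, and in Aire-KO these shares were 99.3% and 10.8%. Only reads wholly inside a counted exon were kept, which leaves many short coding exons with little room for a 50-bp read. In the coding exons before the last exon, Calb1 has 191 possible read starts in 672 bp and Calb2 has 218 in 699 bp. Over the whole counted transcript, Calb1 with its long last exon keeps 2239 of 2867 bp and Calb2 keeps 852 of 1431 bp. Per possible read start (a measure chosen after seeing the data), Calb2 had 0.0944 ± 0.0036 RPKM in Aire-KO and 22.9 ± 9.90 RPKM in WT (SD, n = 2 each). By this measure Calb1 was the last of the 5 genes in both WT libraries. By length it was last in WT replicate 2 and at rank 4 in WT replicate 1.

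The reads along the transcript were then set side by side. In the libraries labelled WT, Calb2 reads covered the coding exons before the last exon (816 and 814 reads) and the last exon (2109 and 2112 reads). Per possible read start, those coding exons had 1.09 times the density of the last exon in WT. In Aire-KO, the few Calb2 reads were nearly all in the last exon, 11 of 12 in the first and 18 of 18 in the replicate experiment, with 1 and 0 reads in the coding exons before it and none in the 5'UTR. The share of reads in the last exon was thus 91.7% (95% exact binomial interval 61.5 to 99.8%) and 100% (81.5 to 100%) in Aire-KO, against 71.1% (69.4 to 72.7%) and 69.5% (67.9 to 71.2%) in WT. The interval of the first experiment spans the WT value and that of the replicate experiment lies above it. Reads were paired before they were joined as single reads, so both mates of a fragment can be counted and these intervals, which cover counting error only, are too narrow. For S100g the last-exon share was nearly the same in the genotypes, 63.9% and 66.0% in Aire-KO, against 64.3% and 65.2% in WT. Calb1 had 74.7% and 71.2% in Aire-KO, against 79.6% and 74.4% in WT, and Pvalb had 40.0% and 43.5% in Aire-KO, against 43.1% and 48.0% in WT. Ocm had 57.9% and 43.1% in Aire-KO, against 43.5% and 37.4% in WT. Ocm also lacked 5'UTR reads in Aire-KO (0 and 0), against 21 and 40 in WT.

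**Figure D3:**
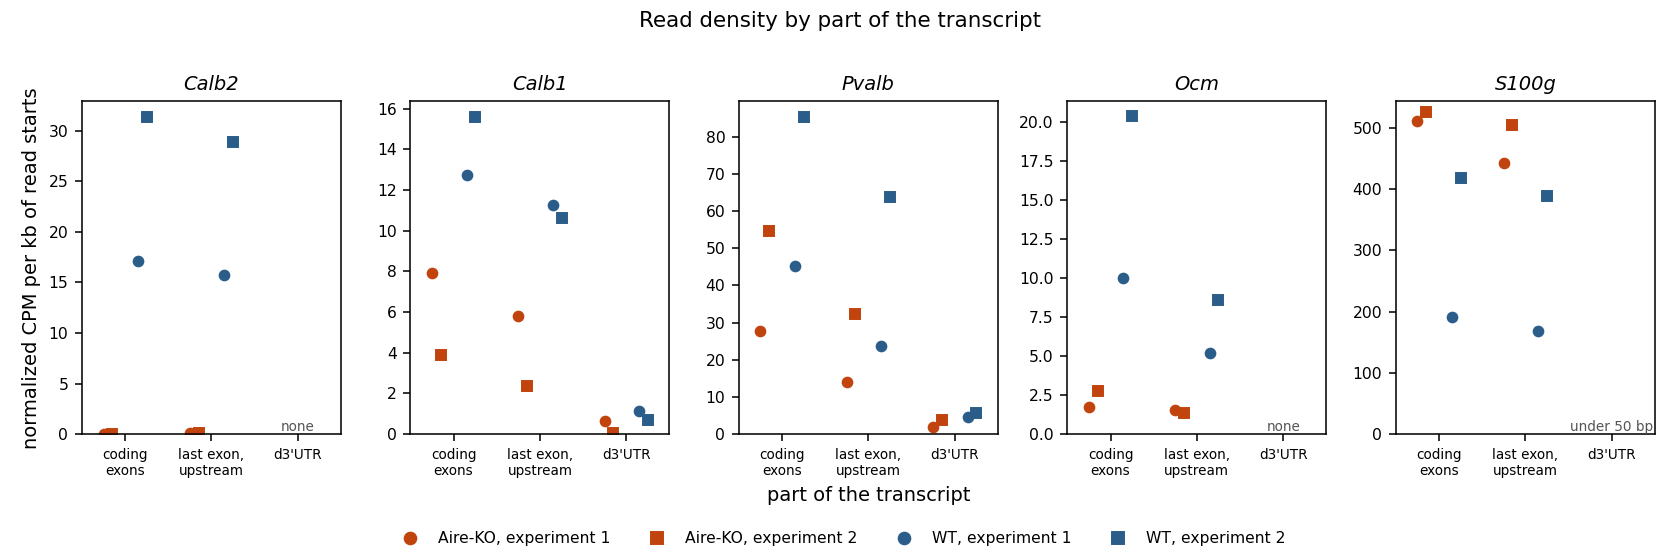
Normalized CPM per kb of possible read starts (linear axes from 0) in the coding exons before the last exon, the upstream part of the last exon and the d3'UTR, for each gene and library (red Aire-KO, blue WT, circles first and squares replicate experiment). Calb2 and Ocm have no d3'UTR and that of S100g is under 50 bp, and the Calb1 and Pvalb d3'UTRs lie far below their upstream parts in every library.

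The study asked whether transcripts that depend on Aire end at proximal polyadenylation sites (pAs), and measured this as the d3'UTR ratio, the read density of the 3'UTR stretch beyond the proximal pA over that of the last exon upstream of it. Of the 5 genes, 3 had an annotated d3'UTR. That of S100g is 24 bp long, shorter than a read, and could not hold one. The 30 bases up to each proximal pA were read from the mm9 genome, with the canonical polyadenylation hexamer AATAAA in capitals, because this is where the shorter isoform would be cut. The annotated ends of the Calb2 and Ocm transcripts, which have no d3'UTR, are shown beside them.
Calb1, proximal pA, chr4:15832642-15832671, plus strand: tattctagtaaactgctgttttatgtcata
Pvalb, proximal pA, chr15:78021910-78021939, minus strand: tggagaaacAATAAAggctgtaccaatcgg
S100g, proximal pA, chrX:159399948-159399977, minus strand: actgttAATAAAgcaagttcggagacacgt
Calb2, annotated end, chr8:112666438-112666467, minus strand: gagAATAAAgtggaaatgttctgtcgcgga
Ocm, annotated end, chr5:144780676-144780705, minus strand: aatcacccAATAAAataatttctcatcatt
The windows were searched for AATAAA and for its common variant ATTAAA on the transcribed strand only, and the motifs do not overlap each other. AATAAA stood in the proximal windows of Pvalb and S100g, and neither motif stood in that of Calb1. The annotated ends of Calb2 and Ocm held AATAAA. Those of Calb1, Pvalb and S100g, not printed here, held neither motif in their last 30 bases. Of 6731 proximal pAs that could be placed in the same way, 35.8% had AATAAA and 14.8% had ATTAAA in their 30 bases.

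Calb1 reads fell off sharply beyond its proximal pA in both genotypes. The d3'UTR of 1185 bp took 110 and 19 reads in Aire-KO, against 281 and 94 reads in WT, and the 875 bp upstream took 700 and 453 reads in Aire-KO, against 2035 and 1045 reads in WT. The d3'UTR ratio of Calb1 was 0.116 (95% exact binomial interval 0.0940 to 0.142) and 0.0310 (0.0185 to 0.0489) in Aire-KO, against 0.102 (0.0897 to 0.116) and 0.0664 (0.0532 to 0.0821) in WT. That of Pvalb was 0.145 (0.113 to 0.185) and 0.134 (0.117 to 0.153) in Aire-KO, against 0.221 (0.194 to 0.252) and 0.0988 (0.0849 to 0.114) in WT. For both genes the WT libraries differed from each other by more than the genotype means did, which were 0.0735 in Aire-KO and 0.0842 in WT for Calb1 and 0.140 in Aire-KO and 0.160 in WT for Pvalb. Over the transcripts tested, the median ratio was 0.510 and 0.437 in Aire-KO, against 0.543 and 0.468 in WT, and the Calb1 and Pvalb ratios lay under the lower quartile (0.217 and 0.155 in Aire-KO, against 0.230 and 0.171 in WT) in all libraries. The change in d3'UTR usage between genotypes, tested as edgeR's interaction of region and genotype, was −0.34 on the log2 scale for Calb1 (SE 0.68, adjusted p = 1) and −0.09 for Pvalb (SE 0.48, adjusted p = 1). Among all 7258 transcripts tested, 0% were called with edgeR, and 127 had an unadjusted p under 0.05. The sign for Calb1 turned to 0.49 without Aire-KO replicate 2, and that for Pvalb to 0.50 without WT replicate 1.

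The genes most like each of the 5 were found by the Euclidean distance of log2(normalized CPM + 0.5) over the 4 libraries, among 19771 genes. For Calb2 these were Krt13 (distance 0.23), a keratin of stratified epithelia, Sst (0.26), which encodes somatostatin, Cytl1 (0.41), Tac2 (0.46), the neurokinin B gene, and Prss29 (0.48). Krt13 had 10 and 0 counts in Aire-KO, against 3156 and 3360 counts in WT. Nearest to Calb1 were Slc26a9 (0.27), Tmigd1 (0.36) and Ano7 (0.44), and nearest to Ocm were Lce1m (0.26), Spdef (0.29) and Teddm3 (0.30). Pvalb was closest to Hsd17b10 (0.31), Neurl1a (0.33) and Sncb (0.34), and S100g to Nsmce1 (0.26), Mtarc2 (0.33) and Tbcd (0.37). This likeness rests on 4 values and describes both level and difference.

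Scgn, which encodes secretagogin, the nearest relative of the calbindins, was not among the 5 genes and could be tested. It had 20 and 2 counts in Aire-KO, against 653 and 633 counts in WT. The Scgn log2 difference was −5.89 (SE 1.20, adjusted p = 0.0443 from edgeR, and 0.000414 with the replicate block). Like those of Calb2, its reads in the first Aire-KO library were mostly in the last exon (19 of 20), whereas both reads of the second lay in the coding exons before it.

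Other calcium-binding proteins and the tissues known for the 5 genes were described by 12 lists of related genes, which hold none of the 5. Of 133 tested members, 22 (16.5%) fell in Aire-KO and 0 rose at an adjusted p under 0.05 from edgeR. Over all IDs, 5.58% were lower and 0.258% higher. The lists were chosen with earlier results of these data known, so these counts are a description and no test of the lists. A list gene counts by 1 RefSeq ID, whereas the share over all IDs counts each ID. Fitted with 1 ID per gene, edgeR called 1241 genes lower and 54 higher in all, and 23 lower and 0 higher in the lists. With the replicate block, 50 fell and 12 rose, and with DESeq2 40 fell and 4 rose. Over all IDs, the block called 4428 lower and 2777 higher of 26790, and DESeq2 called 3528 lower and 565 higher. The block and DESeq2 counts of single lists below are to be read beside these. At an unadjusted p under 0.05 there were 49 lower and 4 higher in edgeR, with no count over all IDs given beside them. The median log2 difference of the 133 was −0.90, and 94 were below 0. Over all 19771 genes tested, at 1 ID per gene, 49.9% were below 0. The counts below 0 in single lists are to be read beside this share.

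Among the EF-hand relatives, the S100 family had 2 of 14 members lower in Aire-KO, at a median log2 difference of 0.40 (4 lower and 7 higher with the replicate block). Both were the subunits of calprotectin of neutrophils and stressed epithelia. Of 6 dendritic cell and macrophage markers, Itgam and Adgre1 were also lower in Aire-KO (log2 differences −2.81 and −3.22, adjusted p of 0.0239 and 0.0307 from edgeR). The other 4 were not called, Itgax at −1.38, Csf1r at −0.67, Lyz2 at −0.14 and Flt3 at 0.06. The part of these markers in the S100 differences was not tested. S100a9 had 4.82 and 3.25 CPM in Aire-KO, against 35.6 and 90.0 CPM in WT (log2 difference −3.96, SE 0.59, adjusted p = 0.0239 from edgeR). S100a8 had 8.93 and 6.12 CPM in Aire-KO, against 46.9 and 128 CPM in WT (log2 difference −3.54, SE 0.60, adjusted p = 0.0316 from edgeR). The next members by p, S100a5 at 2.04 and S100b, a glial gene, at −2.39, did not pass this test (adjusted p of 0.111 and 0.138 from edgeR) but passed it with the replicate block (0.00111 and 0.00539) and with DESeq2 (0.00912 and 0.0210). Of 18 neuronal calcium sensors, 3 were lower (6 with the block), at a median of −1.45. Kcnip1, a subunit of potassium channels, stood at −4.66, Cabp2, a calcium sensor of hair cells, at −3.26, and Hpca, hippocalcin, at −2.48 (adjusted p of 0.0383, 0.0424 and 0.0420 from edgeR). The call of Cabp2 was lost without WT replicate 2 (adjusted p = 0.182 from edgeR). The 8 troponin C and myosin light chain genes had a median of −1.64 with 2 lower (5 with the block), the cardiac light chains Myl2 and Myl3. Myl2 had 0 counts in both Aire-KO libraries, against 152 and 228 counts in WT, at least 77.4-fold lower by a floor of 3 counts per library, and the list's median did not move with Myl2 at that bound. The ubiquitous calmodulins and centrins (10 tested, median −0.39) and the 9 EF-hand proteins of the secretory pathway (median 0.14) had 0 calls each in edgeR. At an unadjusted p under 0.05, there were 2 lower in the first of these lists, among them Calm2 at −1.18, and 1 higher in the second, Sparcl1 at 2.05. With the block, 3 calmodulins or centrins were lower, Calm2 among them (adjusted p = 0.00251 from edgeR), and 1 secretory-pathway protein was lower and 1 higher, Sparcl1 (adjusted p = 4.17e-05 from edgeR). DESeq2 called 0 of the calmodulins and centrins and, of the secretory-pathway proteins, 1 higher, Sparcl1.

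Calcium channels, pumps and vitamin D genes, some of which work with S100g and Calb1 in calcium transport across gut and kidney epithelia, had 5 of 15 members lower in edgeR, at a median of −0.72 (6 lower and 1 higher with the block). They were the neuronal calcium pump Atp2b3 at −6.79, the vitamin D hydroxylase Cyp24a1 at −4.26, the sodium-calcium exchanger Slc8a3 at −3.63, and the epithelial calcium channels Trpv5 at −6.86 and Trpv6 at −3.24 (adjusted p of 0.0255, 0.0265, 0.0492, 0.0417 and 0.0494 from edgeR). Among the 10 not called in edgeR were the pump Atp2b1 at 0.24, the exchanger Slc8a1 at 0.11 and the vitamin D receptor Vdr at 0.37. Atp2b4, at 0.78, was the 1 higher with the block. These uncalled genes were named after their values were seen, and 9 of the 15 members were below 0. Trpv6, the fifth by p, was also named after its values were seen. It had 31 and 25 counts in Aire-KO, against 352 and 169 counts in WT, and Trpv5 had 1 and 0 counts in Aire-KO, against 96 and 45 counts in WT. Without WT replicate 1 the adjusted p was 0.298 for Slc8a3, 0.0817 for Trpv5 and 0.111 for Trpv6, and without WT replicate 2 it was 0.0654 for Trpv5 and 0.0709 for Trpv6. Both channels were thus lower, and S100g higher, in the libraries labelled Aire-KO, and no relation between them was tested.

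By tissue, the list of GABAergic interneuron genes, whose classes are told apart by calbindin, calretinin and parvalbumin, had the most negative median, −3.32, with 6 of 16 lower (10 lower and 1 higher with the block). The other 10 were not called in edgeR, among them Gad1 at −0.57, Gad2 at −4.60 and Slc32a1 at −4.27. While 13 of the 16 were below 0, Reln (1.51, the 1 higher with the block), Dlx1 (0.16) and Dlx5 (0.13) were above it. These uncalled genes were named after their values were seen. Sst, a somatostatin gene, had 26 and 26 counts in Aire-KO, against 3301 and 3267 counts in WT (log2 difference −7.19, SE 0.62, adjusted p = 0.0176 from edgeR). The neuropeptide genes Npy and Cck and the serotonin receptor Htr3a stood at −4.86, −4.52 and −6.06 (adjusted p of 0.0176, 0.0186 and 0.0180 from edgeR), and Vip, a further neuropeptide gene that was named after its values were seen, stood at −7.85. Of 8 distal nephron genes, where Calb1 is abundant, all 8 were below 0 (median −2.01) and 2 were lower (4 with the block), the uromodulin gene Umod at −3.22 and the sodium-chloride cotransporter Slc12a3 at −3.14 (adjusted p of 0.0285 and 0.0376 from edgeR). Of 8 Purkinje cell genes, 1 was lower (3 with the block), Car8 at −1.86 (adjusted p = 0.0423 from edgeR), whose adjusted p was 0.0525 without Aire-KO replicate 1, 0.0934 without Aire-KO replicate 2 and 0.116 without WT replicate 2. The Purkinje list had a median of −1.58, with 7 of the 8 below 0. Of 7 mesothelial genes tested, a lineage known for calretinin, 1 was lower (2 with the block), the uroplakin Upk1b at −5.17 (adjusted p = 0.0176 from edgeR). The median of this list was −0.97, and the 6 genes not called included Msln at −0.52 and Wt1 at −2.26. Cochlear hair cell genes, the tissue of Ocm, had a median of −2.20 and 0 of 10 calls in edgeR (4 lower at an unadjusted p under 0.05, and 3 lower with DESeq2 and with the block), with Otof, the otoferlin gene, at −3.27 (adjusted p = 0.0507 from edgeR, and 0.000383 with the block). Fast-twitch muscle genes, the tissue of Pvalb, had 0 of 10 calls in edgeR (1 lower and 1 higher at an unadjusted p under 0.05, 1 higher with DESeq2, and 3 lower and 2 higher with the block) and a median of −0.62.

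**Figure D4:**
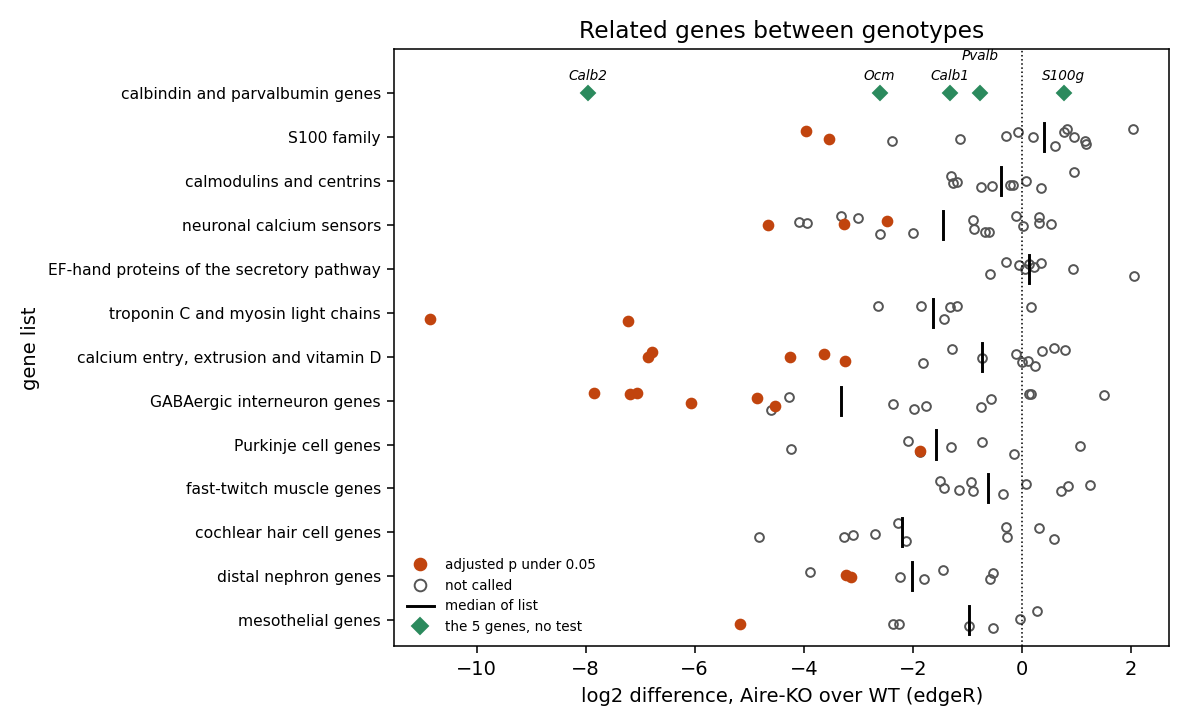
Log2 difference, Aire-KO over WT, of each tested member of the 12 lists (filled where the adjusted p from edgeR was under 0.05, open where not, black line at the median) and, in the top row, of the 5 genes, which were not tested. All 22 filled points lie below 0, and the median of the GABAergic interneuron genes is at −3.32.

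Around the 5 genes, the 2 nearest tested genes on each side were also read, a choice made after seeing the data. Of these 20 neighbours, at 4.95 to 944 kb, 1 was lower in Aire-KO in edgeR (3 lower and 3 higher with the block), and the median log2 difference was 0.13. Over all 26790 IDs tested, 5.58% were lower in edgeR, and with the block 4428 were lower and 2777 higher. The neighbours called lower were thus near the share over all IDs. The neighbour that fell was Necab1, itself an EF-hand gene of neurons, 731 kb from Calb1, with 0.351 and 0.239 CPM in Aire-KO, against 5.36 and 2.66 CPM in WT (log2 difference −3.77, SE 0.64, adjusted p = 0.0309 from edgeR). The genes nearest to Ocm and Calb1 did not pass the test. They were Ccz1, at 4.95 kb from Ocm, with a log2 difference of 0.07 (−0.22 with library sizes alone), and Decr1, at 9.18 kb from Calb1, with −0.51. Beside Calb2, Zfp612 at 47.3 kb stood at 0.69 and Hydin at 98.8 kb at −2.24 (adjusted p = 0.771 and 0.0609 from edgeR, and 0.0459 and 0.000764 with the block).

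The markers of the sorted cells were present in all libraries, with 21371 and 24847 CPM summed over 11 mTEC genes in Aire-KO, against 12455 and 18839 CPM in WT. Most of this sum came from Cd74 (11716 and 14297 CPM in Aire-KO, 6484 and 8874 in WT) and H2-Aa (5932 and 6633 in Aire-KO, 3130 and 6365 in WT). Of the 11 log2 differences, 4 were below 0, among them that of Krt5 (213 and 1048 CPM in Aire-KO, 536 and 1213 in WT). The sum therefore gives no direction for the mTEC genes as a set. Of 6 fibroblast markers, 3 were higher in Aire-KO (summed 261 and 238 CPM in Aire-KO, against 101 and 77.5 CPM in WT), and of 6 dendritic cell and macrophage markers, 2 were lower, Itgam at −2.81 and Adgre1 at −3.22 (summed 347 and 361 CPM in Aire-KO, against 297 and 544 CPM in WT). None of the 7 thymocyte, 5 cortical epithelial or 4 endothelial markers was called in edgeR (3, 0 and 0 of them at an unadjusted p under 0.05, and 1, 0 and 0 with DESeq2). With the replicate block, 3 thymocyte markers were lower, 1 cortical epithelial, 5 mTEC and 5 fibroblast markers were higher, and 2 dendritic cell and macrophage markers were lower. These marker counts are to be read beside those over all 26790 IDs tested. There, edgeR called 5.58% lower and 0.258% higher, the block called 4428 lower and 2777 higher, and DESeq2 called 3528 lower and 565 higher. No marker of these lists was at 0 in all 4 libraries, and their part in the differences of the 5 genes was not tested. In such bulk libraries, fewer cells that express a gene and less RNA per cell cannot be told apart.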

How the data were processed

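RNA-seq was performed on mouse mTEChi in 2 Aire-KO and 2 WT libraries. The authors trimmed the paired reads and joined them as single reads of 50 bp, ran CASAVA as a filter and Bowtie (version 1.0.0) for alignment to mm9, and used bedtools to count reads lying wholly inside RefSeq exons. The deposited values are raw counts per RefSeq ID and per transcript part. Of 30794 IDs, 30216 (98.1%) matched a symbol. CPM, RPKM and ratios were computed from the deposited counts.

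Genotypes were compared with edgeR 4.0.16 (TMM, filterByExpr, quasi-likelihood test, genotype only, prior count 0.125), with DESeq2 1.42.0 as an alternative, in R 4.3.3. SE is the log2 difference over the root of F. Numbers of the experiments pair the libraries, as the study speaks of a replicate experiment, and deviations from group means correlated at 0.52 within an experiment over 19771 genes. Whether a group's libraries come from separate cohorts is not given in the sources used here beyond that, so p-values measure the spread between these libraries. Tests were checked on simulated counts with a fixed dispersion and no experiment effect. That check does not cover the spread or the pairing of these libraries. The 5 genes and the lists were chosen with earlier results of these data known. Genes to be named were the 5, Scgn, Aire, the first 4 of each list by p and the nearest in pattern. Some of the first 4 that did not pass the test are left out of the text, genes named outside the rule are marked, and 1 called list gene is not reported here. Positions come from GENCODE for NCBIM37 (mm9).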

Additional observations from a re-analysis of the deposited data

How the results depend on the processing

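The log2 differences of the 5 genes kept their sign under another scaling, filter, ID choice, prior count (2 in place of the default), DESeq2, the replicate block and each left-out library. Leaving out 1 library moved them from −8.27 to −7.44 for Calb2, from −2.18 to −0.78 for Calb1, from −1.41 to −0.10 for Pvalb, from −2.92 to −2.06 for Ocm and from 0.38 to 1.47 for S100g. With the replicate block they were −7.95, −1.48, −0.77, −2.55 and 0.88 (SE 0.40, 0.34, 0.23, 0.45 and 0.25). Over all IDs, 69 were higher and 1495 lower in Aire-KO. These counts became 143 higher with no filter on low counts, 2470 lower with library sizes alone (which moved the median of all IDs to −0.26), 565 higher and 3528 lower with DESeq2, and 2777 higher and 4428 lower with the replicate block. Without 1 library they ranged from 66 to 521 higher and from 1524 to 3664 lower. Over the 12 lists, 22 lower and 0 higher became 50 and 12 with the block, 40 and 4 with DESeq2, and 1 higher with no filter, and 25 to 38 lower and 1 to 2 higher without 1 library. Of 25 named genes called lower by edgeR outside the 5, all 25 were lower in every alternative and 20 kept their call in each. The exceptions were Cabp2, Car8, Slc8a3, Trpv5 and Trpv6, with adjusted p up to 0.182, 0.116, 0.298, 0.0817 and 0.111 without 1 library. Of the uncalled genes followed through the alternatives, Ccz1 turned to −0.22 with library sizes alone, and Zfp612 ranged from −0.62 to 2.21 without 1 library.

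The d3'UTR usage test called 0 transcripts with at least 50 or 10 reads in each region and with the replicate block (Calb1 −0.36, Pvalb −0.06), and 0 to 18 without 1 library, where Calb1 ranged from −1.41 to 0.49 and Pvalb from −0.67 to 0.50. These reversals, 0.49 and 0.50, did not pass the test, and the cause was not tested. Room for reads, exon by exon (chosen after seeing the data), raised the density of the coding exons over the last exon to 1.25 for Calb1 and 1.09 for Calb2 in WT, beside 0.375 and 0.366 by length. The low Aire-KO counts of Calb2 and Scgn limit what can be said of their reads.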
